A study of Mus musculus with 6 samples.

Results

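The genes described here code for the alpha-macroglobulins A2m, Pzp, Mug1 and Mug2, and for the inter-alpha inhibitor chains Ambp, Itih1, Itih2, Itih3 and Itih4. They are 9 of the 39179 genes in the deposited files. They were chosen by gene family with the values of the comparison below already known, so their differences between the groups are given as a description and their own p-values are not read as evidence. RNA-seq had been made from liver tumours of wildtype C57BL/6 mice. Hydrodynamic injection, a rapid injection of a large volume of fluid, had brought transposons into the hepatocytes. In 1 group, called Nras tumours below, the transposons encoded Myc and NrasG12V, a constitutively active form of the small GTPase Nras. In the other, called Akt1 tumours, they encoded Myc and the kinase Akt1, which acts in insulin signalling. The groups shared Myc, strain and tissue, and each had 3 libraries; the sources used here did not give mouse age, transgene promoters or the species of the delivered cDNAs. The labels did not say whether libraries of a group came from separate mice, so the errors cover only the spread between these samples. The design sets the mRNA of the 2 tumour kinds side by side.

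Alpha-macroglobulins are large plasma glycoproteins made mainly by hepatocytes. A protease that cuts their bait region is trapped inside the folded molecule, and the complex is cleared by the receptor Lrp1. Inter-alpha inhibitors are built from bikunin, a small Kunitz-type protease inhibitor that carries a chondroitin sulfate chain, and from heavy chains joined to that chain by ester bonds. The enzyme-like protein encoded by Tnfaip6 can move the heavy chains onto hyaluronan, which stabilizes extracellular matrix. Both systems are classic secreted products of differentiated liver, and in the rat A2m is a textbook acute phase gene.

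The coding sequences show what joins the members of each family and how near they are to each other. All 4 alpha-macroglobulin transcripts held the codons of the thioester, the reactive bond between a cysteine and a glutamine that can attach the protein to its target. The stretches below come from the GENCODE M21 transcripts of build GRCm38 and are written on the coding strand, with the 15 bases of the thioester in capitals and 18 bases on each side. The thioester codons start at codon 971 of A2m, 983 of Pzp and 973 of both Mug1 and Mug2.
A2m: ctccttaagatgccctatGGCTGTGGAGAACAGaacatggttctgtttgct
Pzp: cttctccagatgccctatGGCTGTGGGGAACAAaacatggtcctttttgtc
Mug1: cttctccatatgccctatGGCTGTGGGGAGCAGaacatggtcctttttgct
Mug2: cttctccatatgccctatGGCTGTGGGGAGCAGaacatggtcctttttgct
The Mug1 and Mug2 stretches were identical over 51 bases, Pzp differed from them at 5 bases, and A2m differed from Pzp at 9 and from Mug1 at 8. Over the whole coding sequence Mug1 and Mug2 were identical at 95.1% of aligned bases, A2m and Mug1 at 70.0%, A2m and Pzp at 66.4% and Pzp and Mug1 at 65.6%. Of the 75-base windows of the Mug1 transcript, as long as the reads, 15.9% also occurred in another gene, and of those of Mug2 36.0%, mostly in the pseudogene Mug-ps1, which was not analysed here. The split of reads between Mug1 and Mug2 is therefore uncertain. The other 7 genes shared 0 of their windows.

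The heavy chains Itih1, Itih2 and Itih3 held the codons of the site at which the precursor is cut and joined to chondroitin sulfate. The same search in Itih4, whose product is not joined to bikunin, found 0 matches. The 18 bases of the site are in capitals, starting at codon 672 of Itih1, 706 of Itih2 and 649 of Itih3.
Itih1: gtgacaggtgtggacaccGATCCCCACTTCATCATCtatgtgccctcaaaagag
Itih2: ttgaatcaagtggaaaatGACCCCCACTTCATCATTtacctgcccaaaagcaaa
Itih3: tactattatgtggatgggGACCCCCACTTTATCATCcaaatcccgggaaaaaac
These stretches differed from each other at 19 to 23 of 54 bases, but at only 2 of the 18 bases of the site. Whole heavy chain coding sequences were identical at 59.3% to 66.1% of aligned bases, the nearest pair being Itih1 and Itih3. Ambp codes for a precursor that is cut into alpha-1-microglobulin, a heme-binding lipocalin, and bikunin. The cut is made by a furin-type enzyme, and the 12 bases of its basic site, from codon 201, are in capitals below.
Ambp: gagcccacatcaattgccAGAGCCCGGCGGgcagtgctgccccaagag

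Values are CPM, a gene's reads scaled to a common library total, with 17881282 to 27865094 reads per library. A count of 0 allows up to 3 reads, or 0.108 to 0.168 CPM, from counting error alone. As a check of the labels, Nras transcript was 3.05-fold higher in Nras tumours, Akt1 transcript 4.30-fold higher in Akt1 tumours, and Myc was at 153 and 154 CPM. Nras replicate 3 lay away from its group's other 2 libraries along principal component 2 (11.6% of the variance). Hepatocyte markers were abundant in all 6 libraries. The 12 hepatocyte markers in the files, of which 4 were called higher and 1 lower in Nras tumours, summed to 142435 to 171809 CPM there and 48952 to 61499 CPM in Akt1 tumours, most of it albumin (Alb), at 11.1 ± 1.77% (SD, n = 3) of reads against 3.36 ± 0.442% (SD, n = 3). Alb did not overlap between the groups but was not called by limma (log2 difference 1.72, 95% interval -0.45 to 3.89, adjusted p = 0.184), while edgeR and DESeq2 called it. Summed markers of cholangiocytes were 438 to 978 against 142 to 274 CPM, of macrophages 404 to 741 against 274 to 357, of neutrophils 31.7 to 203 against 3.68 to 4.71, of T and NK cells 13.3 to 36.0 against 7.08 to 10.3, and of erythroid cells 300.4 to 1869 against 49.8 to 103. Of the markers tested, 1 of 6, 4 of 12, 7 of 9, 4 of 9 and 6 of 8 in this order were called higher in Nras tumours. That compares with 10% of all genes tested. In Akt1 tumours 1 T and NK cell marker was called higher. Stellate, endothelial, B cell and mesothelial sums overlapped between the groups. Of their markers tested, 3 of 12, 4 of 10, 0 of 3 and 0 of 2 in this order were called higher in Nras tumours. In Akt1 tumours 1 endothelial marker was called higher. Across the lists, 0 markers had 0 reads in all libraries. The part of these shifts in the results below was not tested. In bulk tumour RNA, fewer cells of a type cannot be told apart from less RNA per cell.

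A2m, Pzp and Mug1 were higher in every Nras library than in any Akt1 library, by 401-, 2.93- and 3.65-fold in mean CPM, and Mug2 overlapped. A2m, alpha-2-macroglobulin (ENSMUSG00000030111, chr6:121635376-121679227, plus strand, GRCm38), was at 398, 451 and 323 CPM in Nras replicates 1, 2 and 3. In Akt1 tumours it was at 0.552, 1.87 and 0.500 CPM, from 13, 52 and 11 reads. The Nras libraries lay close together and every Akt1 library was far below them. The size of the ratio rests on the few Akt1 reads, and A2m CPM differed up to 3.73-fold between Akt1 libraries. Group means were 390.5 ± 64.3 CPM (SD, n = 3) and 0.973 ± 0.774 CPM (SD, n = 3). The fitted log2 difference, from limma on log2(CPM + 1), was 7.69 with a 95% interval from 7.05 to 8.32, and it understates a gene so low in 1 group. Without Akt1 replicate 2, which held 52 of the 76 A2m reads of its group, the ratio was 743-fold.

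Pzp (ENSMUSG00000030359, chr6:128483567-128526720, minus strand) codes for the abundant tetrameric alpha-macroglobulin of mouse plasma and was the member with the most reads. It was at 10211, 8478 and 5423 CPM in Nras tumours and at 2612, 3345 and 2280 CPM in Akt1 tumours. The lowest Nras library, replicate 3, was still above the highest Akt1 library. The log2 difference was 1.52 (95% interval 0.65 to 2.39), between means of 8038 ± 2424 CPM (SD, n = 3) and 2746 ± 545 CPM (SD, n = 3). This gene passed the limma threshold with all libraries (adjusted p = 0.0138), but not without Nras replicate 1 (0.0511), without Akt1 replicate 1 (0.0547) or with no filter on low genes (0.107), in a range over the alternatives from 6.2e-08 to 0.107.

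Mug1 and Mug2, the murinoglobulins, code for single-chain relatives of alpha-2-macroglobulin found in rodent plasma. Mug1 (ENSMUSG00000059908, chr6:121838541-121889057, plus strand) was at 3370, 2009 and 3560 CPM against 547, 1114 and 791 CPM. Its means were 2979 ± 846 CPM (SD, n = 3) and 817 ± 284 CPM (SD, n = 3), a log2 difference of 1.88 (95% interval 1.09 to 2.67). Mug2 (ENSMUSG00000030131, chr6:122006761-122085965, plus strand) was at 779, 859 and 316 CPM against 209, 303 and 353 CPM. Replicates 1 and 2 of Nras tumours were well above the other group, and replicate 3 lay within it. The log2 difference of Mug2 was 1.08 (95% interval 0.21 to 1.95) and did not pass the limma threshold (adjusted p = 0.0525). It passed without Nras replicate 3, at 1.53 (adjusted p = 0.00186), and with each composition-scaled alternative. Over all alternatives, passed or not, the adjusted p of Mug2 from limma, edgeR or DESeq2 ran from 0.00128 to 0.172. Because these 2 genes share windows, their reads were also summed: together they took 0.363 ± 0.0675% (SD, n = 3) of reads against 0.111 ± 0.0332% (SD, n = 3), 3.28-fold more.

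**Figure D1:**
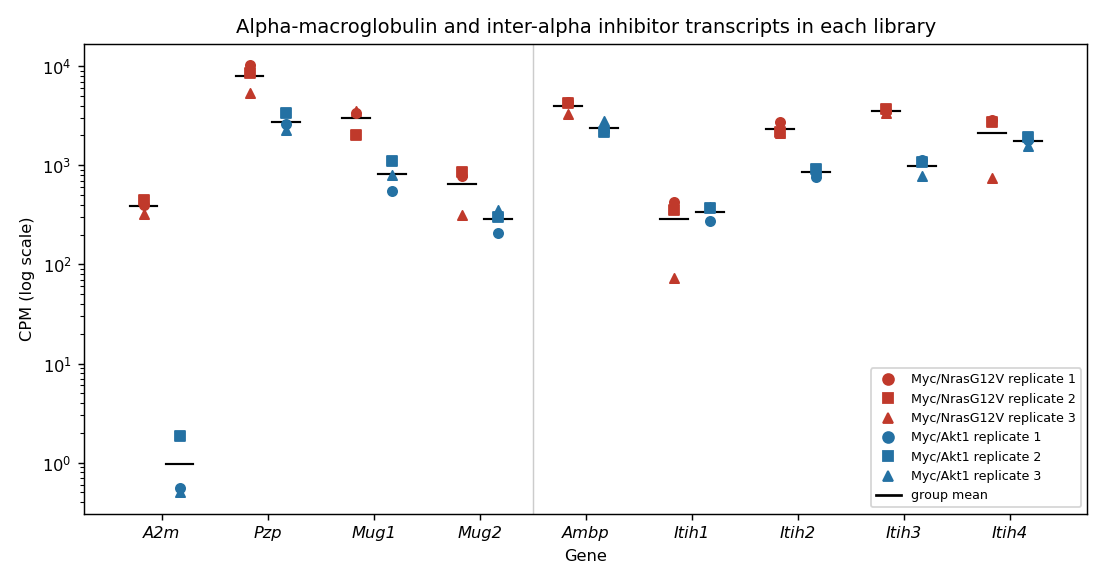
CPM (log axis) of the 4 alpha-macroglobulin genes, left of the vertical line, and the 5 inter-alpha inhibitor genes in each library, with 1 symbol per replicate and a black bar for the group mean. A2m sits at 323 to 451 CPM in Nras tumours and at 0.500 to 1.87 CPM in Akt1 tumours, while the red triangles of replicate 3 fall far below the other 2 for Itih1, Itih4 and Mug2.

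Of the inter-alpha genes, the heavy chains Itih2 and Itih3 were 2.72- and 3.55-fold higher in Nras tumours and the bikunin gene Ambp 1.66-fold, each with groups that did not overlap. Itih1 and Itih4 overlapped. Ambp (ENSMUSG00000028356, chr4:63143275-63154799, minus strand) was at 4367, 4258 and 3293 CPM in Nras tumours and 2237, 2179 and 2777 CPM in Akt1 tumours. Its means were 3973 ± 591 CPM (SD, n = 3) and 2398 ± 330 CPM (SD, n = 3), a log2 difference of 0.73 (95% interval 0.05 to 1.40). Although the groups did not overlap, Ambp missed the limma threshold over all genes (adjusted p = 0.0827). It passed without Nras replicate 3 (adjusted p = 0.0265) and with the composition-scaled alternatives. Over all alternatives, passed or not, the adjusted p of Ambp from limma, edgeR or DESeq2 ran from 1.06e-04 to 0.298.

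Itih2 codes for heavy chain 2 (ENSMUSG00000037254, chr2:10094593-10131396, minus strand), which is joined to bikunin in inter-alpha-inhibitor. It was at 2731, 2151 and 2117 CPM against 756, 914 and 907 CPM. Its means were 2333 ± 345 CPM (SD, n = 3) and 859 ± 89.2 CPM (SD, n = 3), a log2 difference of 1.44 (95% interval 0.90 to 1.97). Itih3, heavy chain 3 of pre-alpha-inhibitor (ENSMUSG00000006522, chr14:30908572-30923760, minus strand), was at 3533, 3664 and 3377 CPM against 1134, 1071 and 774 CPM. With means of 3525 ± 144 CPM (SD, n = 3) and 993 ± 192 CPM (SD, n = 3), its log2 difference was 1.85 (95% interval 1.25 to 2.44). Itih3 was the steadiest member in Nras tumours, with an SD of 4.07% of the mean, replicate 3 included.

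Itih1, heavy chain 1 (ENSMUSG00000006529, chr14:30929180-30943289, minus strand), was at 431, 353 and 73.7 CPM in Nras tumours and 271, 371 and 378 CPM in Akt1 tumours. Its log2 difference was -0.58 (95% interval -1.90 to 0.73) and turned to 0.21 without Nras replicate 3, to 0.10 with edgeR and to 0.11 with DESeq2. Itih4 (ENSMUSG00000021922, chr14:30886476-30902353, plus strand) codes for the heavy chain that circulates without bikunin. It was at 2859, 2722 and 748 CPM in Nras tumours and 1800, 1914 and 1584 CPM in Akt1 tumours. Replicates 1 and 2 lay above and replicate 3 below all 3 Akt1 libraries. The log2 difference of Itih4 was 0.03 (95% interval -1.09 to 1.15). It became 0.66 without Nras replicate 3, past the threshold (adjusted p = 0.0420, range over the alternatives 0.0420 to 0.976), and -0.30, -0.27 and -0.05 without Nras replicate 1, Nras replicate 2 and Akt1 replicate 3. No direction can be given for Itih1 or Itih4 from these libraries.

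All 9 genes passed the filter on low values. By the limma call (adjusted p under 0.05 over 14365 genes), 5 of the 9, A2m, Pzp, Mug1, Itih2 and Itih3, were higher in Nras tumours, 0 were higher in Akt1 tumours and 4 were not called. Of all genes tested 39.5% were called, 10% higher in Nras tumours and 29.5% higher in Akt1 tumours, and nothing is read from the members' count since the same comparison chose them. In 6 of the 9 every Nras library lay above every Akt1 library, as in 14.8% of all genes tested; with 3 against 3 libraries an exact permutation test of 1 gene cannot go below 0.1. Scaling moved the background: on CPM the median log2 difference of all genes was -0.26 and 25.3% of calls were higher in Nras tumours, against medians of 0.00 to 0.05 and shares of 47.6%, 48.5% and 52.1% with the TMM, the median-of-ratios and the upper-quartile factor. With each of these factors, with edgeR (16.6% of genes called higher in Nras tumours) and with DESeq2, 7 of the 9 were called higher, Mug2 and Ambp being added. Without Nras replicate 3 it was 8, all but Itih1, and without Nras replicate 1 or Akt1 replicate 1 it was 4. Calls over all genes also moved when a library was left out, so nothing is read from these counts. Without Akt1 replicate 1, 954 of all genes were called higher in Nras tumours, against 1437 with all libraries. The median log2 difference of the 9 was 1.44.

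**Figure D2:**
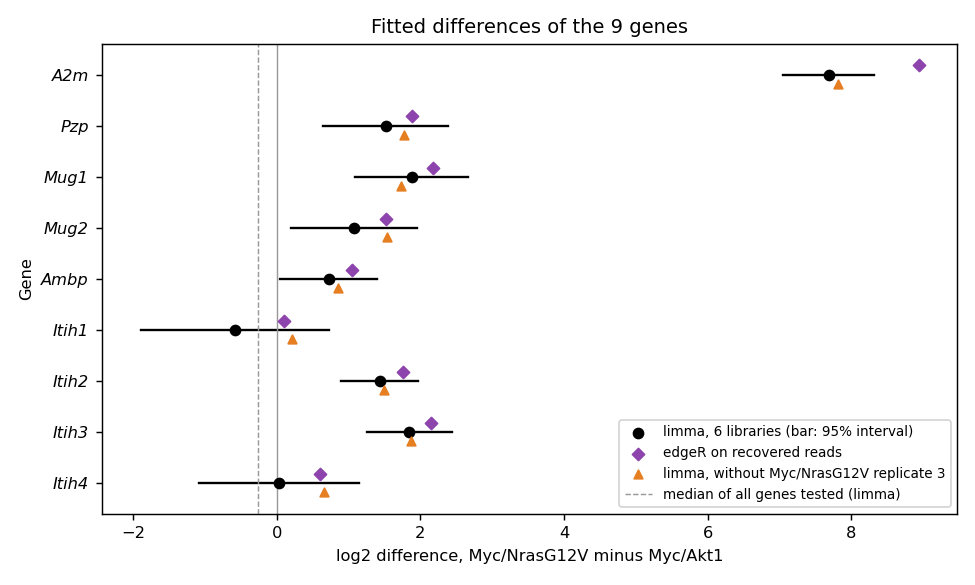
Log2 difference (Nras tumours minus Akt1 tumours) of each gene from limma with its 95% interval, from edgeR on the recovered reads, and from limma without Nras replicate 3; the dashed line is the median of all genes tested, -0.26. A2m stands alone at 7.69, 6 genes lie between 0.73 and 1.88, and Itih4 and Itih1 have intervals across 0.

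The families took near-equal shares of reads in Nras tumours and unequal shares in Akt1 tumours. The 4 alpha-macroglobulin genes together took 1.21 ± 0.258% (SD, n = 3) of reads in Nras tumours and 0.385 ± 0.0790% (SD, n = 3) in Akt1 tumours, and the 5 inter-alpha genes 1.22 ± 0.230% (SD, n = 3) and 0.636 ± 0.0138% (SD, n = 3). The ratios of these sums were 3.13 and 1.92, and the difference between them was not tested. Among all genes ordered by mean CPM, Pzp ranked 12 in Nras tumours and 25 in Akt1 tumours, Ambp 30 and 32, Itih4 48 and 46, and A2m 244 and 12905.

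Levels of different genes were set side by side as CPM per kb of exonic sequence. Per kb, the order in Nras tumours was Ambp (2820), Pzp (1253), Itih3 (969), Itih2 (704), Itih4 (572), Mug1 (516), Mug2 (142), Itih1 (86.8) and A2m (55.6). In that order the library ranges of Ambp (2337 to 3099) and Pzp (845 to 1592) did not overlap, nor did those of Itih3 (928 to 1007) and Itih2 (639 to 824). Those of the neighbours Pzp and Itih3, Itih2 and Itih4 (203 to 775), Itih4 and Mug1 (348 to 617), Mug2 (69.1 to 188) and Itih1 (22.4 to 131), and Itih1 and A2m (46.0 to 64.2) overlapped. Itih2 lay wholly above Mug1, and Mug2 wholly above A2m. In Akt1 tumours the order was Ambp (1702), Itih4 (479), Pzp (428), Itih3 (273), Itih2 (259), Mug1 (142), Itih1 (103), Mug2 (63.0) and A2m (0.139). There Itih4 and Pzp overlapped, as did Itih3 and Itih2, and Mug1 and Itih1 (82.4 to 115). So by group mean A2m, though far apart between the groups, was the lowest member per kb in both. In Nras replicate 3 Itih1 (22.4) was below A2m (46.0).

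The make-up of the heavy chain transcripts also differed. Itih4 held 42.9 ± 1.16% (SD, n = 3) of the summed heavy chain level per kb in Akt1 tumours and 23.2 ± 10.3% (SD, n = 3) in Nras tumours, and Itih3 24.4 ± 3.71% (SD, n = 3) and 42.7 ± 8.19% (SD, n = 3). The ratio of Itih3 to Itih4 per kb was 1.25, 1.37 and 4.58 in Nras tumours and 0.639, 0.567 and 0.496 in Akt1 tumours, so the order of these neighbouring genes was opposite in every library of the 2 groups. Itih1 was at 0.159, 0.165 and 0.0350 of Itih2 per kb in Nras tumours and at 0.361, 0.409 and 0.420 in Akt1 tumours. Itih2 relative to Ambp was 0.266, 0.215 and 0.273 against 0.144, 0.178 and 0.139. These ratios within a library do not depend on its scaling, but they come from the comparison that chose the genes. Among alpha-macroglobulins Pzp held 62.9 ± 8.14% (SD, n = 3) and 67.8 ± 6.05% (SD, n = 3) per kb, and A2m 2.87 ± 0.492% (SD, n = 3) and 0.0203 ± 0.0119% (SD, n = 3).

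**Figure D3:**
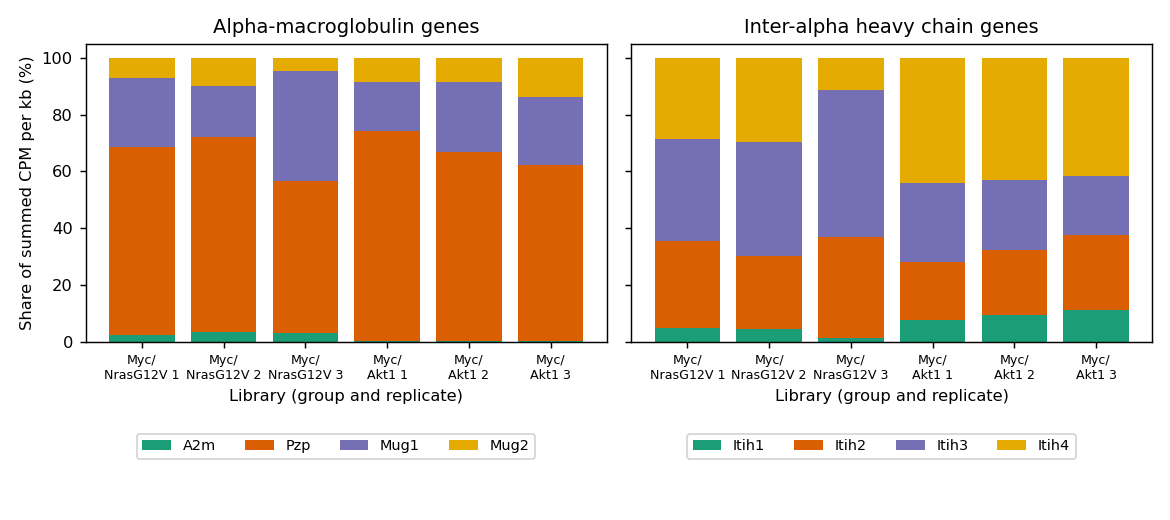
Share (%) of each gene in the summed CPM per kb of its family in each library: alpha-macroglobulin genes on the left, inter-alpha heavy chain genes on the right. Pzp is the largest block in every library on the left, while on the right Itih4 is largest in the 3 Akt1 libraries and Itih3 in the 3 Nras libraries.

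Within Nras tumours the members varied to different extents, and all but Mug1 were lowest in replicate 3. In replicate 3, the library that stood apart, Itih1 was at 0.188 of the mean of replicates 1 and 2, Itih4 at 0.268, Mug2 at 0.386 and Pzp at 0.580. A2m was at 0.761, Ambp at 0.764, Itih2 at 0.868, Itih3 at 0.938 and Mug1 at 1.32. Over 8823 genes at 10 CPM or more on average, this ratio had a median of 1.10, and 1.03% of them were as low as Itih1, 1.71% as low as Itih4, 3.58% as low as Mug2 and 8.89% as low as Pzp. Itih1, Itih3 and Itih4 lie side by side on chromosome 14, yet only Itih3 held its level. The same library had the highest neutrophil and erythroid marker sums (203 and 1869 CPM) and the lowest hepatocyte sum of its group (142435 CPM). Their part in these ratios was not tested.

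**Figure D4:**
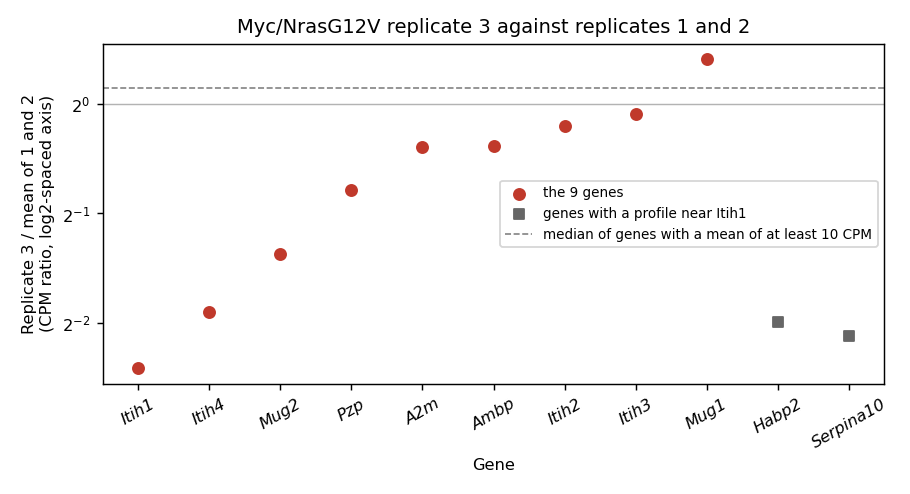
CPM in Nras replicate 3 divided by the mean of replicates 1 and 2 (log2-spaced axis) for the 9 genes and for Habp2 and Serpina10, chosen because their profiles are near that of Itih1, so that their low ratios follow from the choice. The ratios run from 0.188 for Itih1 to 1.32 for Mug1; the solid line is 1 and the dashed line the median of 8823 genes, 1.10.

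The genes with the most similar profiles over the 6 libraries were taken for A2m, the member with the largest difference, and for Itih1, the one with the lowest. Distance was Euclidean between mean-centred log2(CPM + 1) values, and it describes these libraries only. Nearest to A2m were the tetraspanin Tspan8 (0.781), the secreted mucosal peptide Tff3 (1.16), the ketosteroid reductase Akr1c18 (1.49), the fetal liver proteoglycan Gpc3 (1.62) and the calcium channel subunit Cacna1b (1.86). Tspan8 was at 378 CPM in Nras tumours and 1.33 CPM in Akt1 tumours, a pattern like that of A2m, while per kb it was higher (222 and 0.779 CPM per kb against 55.6 and 0.139). Nearest to Itih1 were Habp2 (0.452), a hyaluronan-binding plasma protease, Serpina10 (0.580), the protein Z-dependent protease inhibitor, Mme (0.632), Hrsp12 (0.668) and Tnfrsf19 (0.742). In replicate 3 of Nras tumours these 5 were at 0.251, 0.230, 0.0460, 0.248 and 0.152 of the mean of the other 2 libraries. They were picked for a profile that this library shapes, so their low ratios come with the choice and are no separate result.

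The members lie on chromosomes 2, 4, 6 and 14, and their neighbours did not all follow them. Within 100 kb of a member 29 other genes had a read, 23 were tested, 7 were higher in Nras tumours and 6 in Akt1 tumours, beside 10% and 29.5% of all genes tested. Itih5, beside Itih2 on chromosome 2, was at 233 against 34.8 CPM, and BC048546, the alpha-macroglobulin-like gene named A2ml1 in GENCODE, beside Pzp, was at 231 against 32.8 CPM. Mustn1 and Tmem110 next to Itih4 were 4.12- and 2.01-fold higher in Nras tumours, and Pbrm1, on the other side of that cluster, was 2.09-fold higher in Akt1 tumours. Gm10319, a pseudogene next to Mug2, was 3.57-fold higher in Akt1 tumours. The antisense gene Gm10069 overlaps Pzp and had 11 reads in each group, a small amount beside Pzp; 9 of those in Nras tumours were in replicate 3, and the ratio of mean CPM was 1.42 with that library and 0.334 without it.

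RefSeq promoter windows of 300 bases (250 before to 50 after the start, GRCm38.p6) were found for 8 of the 9 members, A2m being the other one. They were searched on both strands for the STAT motif TTCNNNGAA, the AP-1 motif TGANTCA and the C/EBP motif TTGCNNAA, since IL-6 signalling through STAT3 and C/EBP factors is the textbook route to acute phase genes in liver and AP-1 lies downstream of Ras. The matches found did not overlap. Itih4 held 1 STAT match, starting 51 bases before the start, and Itih2 held 1 AP-1 match at 149 bases and 1 C/EBP match at 33 bases before it; the other 6 held 0. Of all 32851 promoters 8.30% held the STAT motif, 7.81% AP-1 and 10.8% C/EBP. The 200 bases before the start of these 2 genes, at chr2:10130684-10130883 (minus strand) and chr14:30886276-30886475 (plus strand), are given 5′ to 3′ on the gene's strand with the matches in capitals.
Itih2: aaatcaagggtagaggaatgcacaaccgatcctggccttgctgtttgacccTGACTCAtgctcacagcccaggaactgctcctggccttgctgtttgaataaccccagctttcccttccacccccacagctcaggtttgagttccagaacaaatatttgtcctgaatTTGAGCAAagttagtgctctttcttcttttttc
Itih4: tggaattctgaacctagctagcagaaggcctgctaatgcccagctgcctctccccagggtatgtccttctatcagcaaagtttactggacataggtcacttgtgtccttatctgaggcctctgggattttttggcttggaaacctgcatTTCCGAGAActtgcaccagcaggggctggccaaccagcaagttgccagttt
A match is a run of letters, not a shown binding site. The RefSeq starts of Itih2, Ambp, Itih3 and Mug2 lie inside the GENCODE gene spans given above. For Itih2 and Ambp the span reaches beyond the window searched, so other transcripts of these genes can start upstream of it. For Itih3 and Mug2 the upstream end of the span lies within the window. The Mug1 and Mug2 windows, aligned with an offset, held 246 identical bases, 10 mismatches and 88 gap positions (96.1% identity of aligned bases). Mug1 was 3.65-fold and Mug2 2.26-fold higher in Nras tumours in mean CPM. Without Nras replicate 3 these folds were 3.29 and 2.84, and the split of reads between the genes is uncertain.

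Genes around these inhibitors were counted in lists. Each was read against the 10% and 29.5% of all genes called higher in Nras tumours and Akt1 tumours and the median of -0.26. This background is that of limma on CPM with all libraries. The alternatives moved it as well, so a count under an alternative is not read as a change of the list alone. Of 7 tested relatives of the alpha-macroglobulins, complement and heavy chains, 2 were higher in Nras tumours and 2 in Akt1 tumours, with a median log2 difference of 0.37. Itih5, a heavy chain relative, was 6.70-fold (limma adjusted p = 1.09e-04) and BC048546 7.06-fold (adjusted p = 0.0102) higher in Nras tumours. The complement gene C4a was at 9.32 against 27.1 CPM and the membrane-anchored Cd109 at 0.790 against 4.02 CPM. The complement genes C3, at 7816 against 9403 CPM, C4b and Hc did not pass. With DESeq2 4 relatives were higher in Nras tumours, C4b and Hc being added, and the sign of the C3 difference turned with the median-of-ratios or upper-quartile factor, edgeR, DESeq2 or without Nras replicate 3. Of 7 genes of receptors and uptake, 0 were higher in Nras tumours and 2 in Akt1 tumours, among them Lrpap1, the chaperone of Lrp1, and with TMM, median-of-ratios or upper-quartile factors, edgeR or DESeq2 the 2 became 0. The 2 became 1 without Akt1 replicate 1 or 3, Lrpap1 still being called. They became 3 with a pseudocount of 0.1, with no filter and without Nras replicate 2, Lrp2 being added. With DESeq2 1 gene of this list, Vldlr, was higher in Nras tumours. Lrp1 itself, the clearance receptor, was at 328, 315 and 281 CPM against 330.2, 429.6 and 295 CPM, with overlapping groups and a log2 difference of -0.18 (95% interval -0.62 to 0.26), whose sign turned with each of these factors, edgeR and DESeq2.

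Of 24 other plasma protease inhibitor genes, 15 were higher in Nras tumours and 2, Tfpi2 and Serpinf1, in Akt1 tumours, with a median log2 difference of 1.6. Serpina3n, an antichymotrypsin-like serpin, was at 3555 ± 514 CPM (SD, n = 3) in Nras tumours, as compared with 277 ± 31.2 CPM (SD, n = 3), 12.8-fold higher, and its relative Serpina3m 6.25-fold. Serpina1e, of the alpha-1-antitrypsin cluster, was 107-fold higher, or 211-fold without Akt1 replicate 3. Serpina1 and Serpina3 genes have close copies, so their split of reads is uncertain. The liver glycoprotein Ahsg was 7.58-fold, the antiplasmin Serpinf2 4.36-fold and the kininogen Kng1 3.35-fold higher, beside 2.93 for Pzp and 3.55 for Itih3. Not past the test were Serpina10, Serpinc1 (antithrombin, 1130 against 1416 CPM), Serpind1, Serping1, Serpina6, Spint2 and Tfpi. Serping1 passed as higher in Nras tumours with the other factors, edgeR, DESeq2 and without Nras replicate 3. Serpind1 did so without Nras replicate 3 and Tfpi with DESeq2. Serpina6 passed as higher in Akt1 tumours without Nras replicate 1, where the 2 became 3. With no filter the 15 became 13, Ahsg and Serpina3k being lost. The 2 higher in Akt1 tumours became 1 with the other factors, edgeR and DESeq2 and without any 1 Akt1 library, Serpinf1 being the one lost. Tfpi2 was 8.59-fold higher in Akt1 tumours, or 14.5-fold without Nras replicate 2.

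Of 19 protease genes of kinds that alpha-macroglobulins can bind, 8 were higher in Nras tumours and 2, Mmp13 and Plau, in Akt1 tumours, with a median log2 difference of 0.72. The serine protease Prtn3 was at 21.6, 20.2 and 13.2 CPM against 1.32, 0.754 and 1.41 CPM, and the elastase Cela1 at 27.2 ± 3.60 CPM (SD, n = 3) in Nras tumours, as compared with 9.42 ± 0.563 CPM (SD, n = 3). Both groups of each gene were clear of each other. The collagenase Mmp13 was at 1.56 against 12.9 CPM, 8.28-fold higher in Akt1 tumours. The plasma zymogen genes Plg (plasminogen) and F2 (prothrombin), themselves hepatocyte products, were 1.91- and 1.98-fold higher in Nras tumours. Plg was not called with no filter or without any 1 library other than Nras replicate 3, and F2 not with no filter or without Nras replicate 1 or 2 or Akt1 replicate 1. The 8 became 9 or 10 with the other factors, edgeR and DESeq2. They became 5 without Akt1 replicate 1, where calls higher in Nras tumours over all genes also fell, from 1437 to 954.

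Of 22 acute phase genes, 8 were higher in Nras tumours and 4 in Akt1 tumours, with a median log2 difference of -0.26. The list median was 0.06 to 0.15 with the other factors, edgeR and DESeq2, where that of all genes tested also moved, to between 0.00 and 0.05. Without Nras replicate 3 it was 0.07, beside -0.32 for all genes. Higher in Nras tumours were Serpina3n, Lrg1 (4.07-fold), Lcn2 (4.83-fold), Apcs, Cp and the fibrinogen genes Fga, Fgb and Fgg (3.26-, 4.20- and 3.06-fold). Higher in Akt1 tumours were Orm2 (8.06-fold) and the serum amyloid genes Saa1, Saa2 and Saa3 (4.45-, 8.92- and 4.65-fold; Saa2 14.7-fold without Nras replicate 2). Haptoglobin (Hp), at 5281, 6798 and 1937 CPM against 5252, 5627 and 5484 CPM, overlapped and was low in replicate 3, as Itih4 was, and its sign turned without that library, with edgeR and with DESeq2. The 8 became 5 with no filter, Cp, Fga and Fgg being lost, and Cp was also lost without Nras replicate 1 or 2 or Akt1 replicate 2 or 3. The 4 became 6 without Nras replicate 2.

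Of 19 IL-6 family signalling genes, 6 were higher in Nras tumours and 1, Stat5a, in Akt1 tumours, with a median log2 difference of 0.33. Socs3, a feedback inhibitor induced by STAT3, was at 32.6, 39.7 and 35.8 CPM against 5.39, 4.20 and 5.91 CPM, 6.98-fold higher (limma adjusted p = 9.52e-05). The oncostatin M receptor gene Osmr was 4.99-fold and the cytokine gene Lif 3.47-fold higher, and Osm, Cebpd and Il11ra1 were the others. Osm was 4.97-fold higher (8.34-fold without Akt1 replicate 1) and Cebpd 3.11-fold (5.07-fold without Akt1 replicate 3). Cebpd lost its call without Akt1 replicate 1 or 2, and Il11ra1 with a pseudocount of 5, no filter, the replicate block or any 1 library other than Nras replicate 3 left out. Stat3 did not pass, at 182 ± 9.73 CPM (SD, n = 3) in Nras tumours, as compared with 146 ± 23.3 CPM (SD, n = 3), nor did the receptor gene Il6ra, at 22.3 against 11.9 CPM. Il6 had 5 and 3 reads over the groups and was not tested. The 6 became 9 with the other factors, edgeR and DESeq2, each of which called Stat3 and Il6ra, and Il6ra also passed without Nras replicate 3 or Akt1 replicate 2. The 6 became 4 without Akt1 replicate 1; the 1 became 0 with the other factors, edgeR and without Akt1 replicate 1, and 2 without Nras replicate 1.

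The partners of the inter-alpha inhibitors were covered by 3 lists. Of 14 genes of hyaluronan and its binding proteins, 3, Stab1, Lyve1 and Stab2, were higher in Nras tumours and 4 in Akt1 tumours, with a median log2 difference of 0.15. Those 3 code for receptors of sinusoidal and lymphatic endothelium, and Stab1 was 2.68-fold higher. The 10 endothelial markers, Lyve1 and Stab2 among them, had a median log2 difference of -0.20. Of those markers 4 were called higher in Nras tumours and 1 in Akt1 tumours, and their sums overlapped. The cartilage link protein gene Hapln1 had 8 reads in Nras tumours and 728 in Akt1 tumours, at 9.94 CPM there, a ratio of 80.0 that was 53.3 without Nras replicate 3 and 139 without replicate 2. The mitotic gene Hmmr was 24.0-fold higher in Akt1 tumours. Tnfaip6, whose product transfers heavy chains, was at 1.58, 2.30 and 0.839 CPM against 1.02, 0.502 and 0.636 CPM, overlapping and not past the test, though it passed with DESeq2 and without Nras replicate 3. The 3 became 5 with DESeq2 and 2 without Nras replicate 2 or Akt1 replicate 1 or 2. Stab2 lost its call in those 3 cases, with no filter and without Nras replicate 3. Of 23 chondroitin sulfate synthesis genes, 4 were higher in each group, with a median log2 difference of 0.05. The polymerizing genes Chpf and Chsy3 were 4.26- and 3.35-fold higher in Nras tumours, and Ugdh, which makes the sugar donor UDP-glucuronate and also serves glucuronidation, was at 46.5 against 579.6 CPM. Without Akt1 replicate 1 or 2 only 2 were higher in Akt1 tumours, and likewise with the other factors, edgeR and DESeq2, which left 6 or 7 higher in Nras tumours.

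Of 6 proprotein convertase genes, 2 were higher in Nras tumours and 1, Pcsk6, in Akt1 tumours, with a median log2 difference of -0.35. Furin, the convertase that gives its name to the kind of site printed for Ambp, was at 292, 312 and 315 CPM against 116, 126 and 149 CPM, 2.35-fold higher (limma adjusted p = 7.17e-04). The 2 became 1, Furin, when replicate 1 or 2 of either group was left out. Pcsk6 was lost with the other factors, edgeR and DESeq2, and when replicate 1 of either group, Nras replicate 2 or Akt1 replicate 3 was left out. Of 21 liver transcription factor genes, 2, Hnf4g and Foxa3, were higher in Nras tumours and 6, Nr1h4 foremost, in Akt1 tumours, with a median log2 difference of -0.46. Hnf4a was at 628 against 601 CPM, with overlapping groups, and the order of its means turned without replicate 3 of either group. Hnf4g had 166 reads against 1, Foxa3 was 3.34-fold higher in Nras tumours, and the bile acid receptor gene Nr1h4 was 4.30-fold higher in Akt1 tumours. The 6 became 2 with the other factors, edgeR and DESeq2 and without Akt1 replicate 1 or 2, 3 without Nras replicate 1 or with no filter, and 4 without Akt1 replicate 3 or with library totals that left out Alb and mitochondrial genes.

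**Figure D5:**
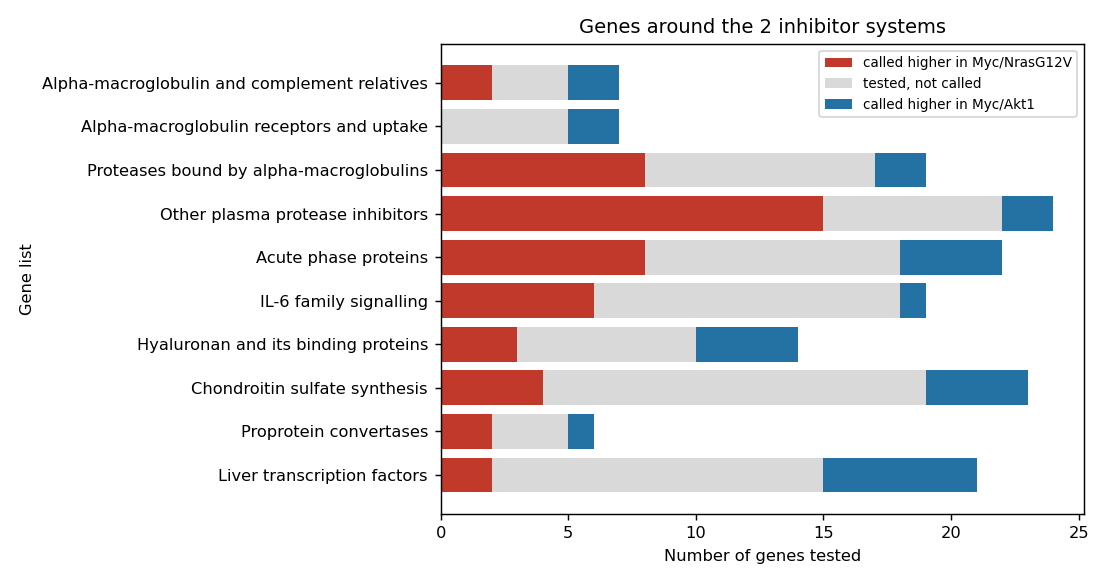
Number of tested genes of each list called higher in Nras tumours (red), called higher in Akt1 tumours (blue) or not called (grey) by limma on log2(CPM + 1). Other plasma protease inhibitors have the most genes higher in Nras tumours, 15 of 24, against 10% of all genes tested; liver transcription factors have 6 of 21 higher in Akt1 tumours, near the 29.5% of all genes.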

How the data were processed

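Stranded poly(A) libraries, read from 1 end over 75 cycles, had been made from 6 tumour samples, per the labels' protocols. The deposited column is named reads but holds CPM. Per the submitters' processing notes the build was GRCm38 and the tools were edgeR 3.22.5, Subread 1.6.3 and STAR 2.6.1c. The sources used here did not give the gene model release, the strand option or the handling of multi-mapping reads. All deposited CPM values (100%) were whole multiples of 1 read (0.0359 to 0.0559 CPM) within 0.01 read, so reads were recovered. Groups were compared with limma 3.58.1 (trend, two-sided, R 4.3.3) on log2(CPM + 1) over the 14365 genes that passed filterByExpr, with Benjamini-Hochberg adjustment and calls under 0.05. In place of limma, edgeR 4.0.16 on the recovered reads gave 4893 calls (2381 higher and 2512 lower in Myc/NrasG12V). Of these, 3943 were limma calls too, with the same sign. DESeq2 1.42.0 was also run. A fold is a ratio of mean CPM. The fit was first tested on simulated data. Of 39179 gene identifiers 37693 (96.2%) matched GENCODE M21, used for coordinates, exonic lengths and coding sequences; sites were searched in the translated coding sequences. Alternatives tried were other scaling factors, library totals, pseudocounts (0.1 and 5), filters and tests, a replicate block, and each library left out in turn.

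The members and gene lists were chosen with earlier results of these data known. Named genes are the members, the delivered oncogenes, Alb, the 3 called genes of lowest adjusted p in each list, Lrp1, Tnfaip6, Stat3, Socs3, Il6ra, Furin and Hnf4a, and the 5 genes nearest in profile to the members with the highest and lowest log2 difference; predicted and clone-based symbols were left out of the latter. Other genes were named after their values were seen, and some that the rule names are not reported here.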

Additional observations from a re-analysis of the deposited data

How the results depend on the processing

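The number of the 9 genes called was 4 to 8 when 1 library was left out, against 5 with all, and 4 to 7 over the other alternatives, lowest with no filter. Calls over all genes, 5677, ran from 3825 to 6353 when 1 library was left out. Higher in Myc/NrasG12V were 1437 on CPM, 2331 with TMM, 2366 with median-of-ratios and 2544 with upper-quartile factors, 2381 with edgeR and 2752 with DESeq2; higher in Myc/Akt1 were 4240, 2565, 2515, 2343, 2512 and 2791. Without Myc/Akt1 replicate 1 only 954 genes were higher in Myc/NrasG12V. A2m, Mug1, Itih2 and Itih3 kept their direction and call under every alternative, with log2 differences from 6.04 to 8.96, 1.62 to 2.25, 1.32 to 1.81 and 1.68 to 2.22. The difference of Itih1, -0.58, was 0.10 with edgeR and 0.11 with DESeq2, and ran from -1.05 to 0.21 over all alternatives. That of Itih4 ran from -0.30 to 0.66 and was negative, at -0.30, -0.27 and -0.05, without Myc/NrasG12V replicate 1, Myc/NrasG12V replicate 2 and Myc/Akt1 replicate 3. The cause of these changes was not tested.

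With the replicate number as a block, 5530 genes and 5 of the 9 were called, and no call of a member changed. Same-numbered libraries deviated from their group means with correlations of -0.08, 0.11 and 0.08 for numbers 1, 2 and 3, so the numbers were not taken to pair the samples. Libraries of 3 a group limit precision, and A2m in Myc/Akt1 rests on 76 reads.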
